A study of Homo sapiens with 12 samples.

Results

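Small nucleolar RNA host genes carry small nucleolar RNAs (snoRNAs) in their introns and are spliced like coding genes. They were followed in U2932 and TMD8, established cell lines of diffuse large B-cell lymphoma (DLBCL), after treatment with antibodies against CD20. The genes are those whose symbol is SNHG followed by a number, together with GAS5, EPB41L4A-AS1 and ZFAS1, and they needed at least 10 counts in 2 or more of the 12 libraries. Of the 58884 genes counted, 31 had such a symbol and 26 of these reached the limit. Of the 26, 22 had at least 10 counts in all 12 libraries. SNHG18, SNHG22, SNHG27, SNHG28 and SNHG32 fell below the limit. Each line was of wild-type genotype by its label and received 20 µg/mL of rituximab (R), ofatumumab (OF) or a human IgG1 isotype for 4 h. R and OF bind different epitopes of CD20. There were 2 libraries of total RNA in each of the 6 groups, and each line was kept as separate cultures for a week before treatment to give its 2 replicates.

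A host transcript has a double role as background. Its introns release box C/D or box H/ACA snoRNAs, which guide the chemical modification of ribosomal RNA, while the spliced remainder often has no long reading frame. Many of these spliced RNAs are bound by ribosomes and then removed by nonsense-mediated decay, so that their level follows both the rate of transcription and the rate of decay. Several hosts, GAS5 among them, share with ribosomal protein genes a start that begins with a C and a run of pyrimidines, the sequence by which translation of such RNAs responds to growth signals. A count of reads per gene gives the level of the RNA and tells neither rate apart from the other.

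The start regions of the genes on which the results turn are shown because this run of pyrimidines is a feature the choice of genes did not use. Each stretch holds 30 bases, from 10 bases before the RefSeq start to 19 after it, read 5′ to 3′ on the gene's strand (RefSeq annotation of GRCh38.p14). Capitals mark a C followed by at least 4 C or T, where the C lies within 10 bases of the start.
SNHG5, chr6:85678714-85678743, minus strand: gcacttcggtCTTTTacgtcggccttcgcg
SNHG16, chr17:76557754-76557783, plus strand: gggcggtctcgcgttCTTTTCgaggtcggc
SNHG17, chr20:38435309-38435338, minus strand: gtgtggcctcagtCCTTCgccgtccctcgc
ZFAS1, chr20:49278632-49278661, plus strand: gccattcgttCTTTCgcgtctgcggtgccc
SNHG29, chr17:16438977-16439006, plus strand: CCTTTTgtgaggattgggatattccgactc
SNHG7, chr9:136728165-136728194, minus strand: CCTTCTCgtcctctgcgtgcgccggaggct
SNHG1, chr11:62855866-62855895, minus strand: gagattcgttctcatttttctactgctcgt
SNHG30, chr17:35568104-35568133, plus strand: tgtaagacctgagccgggcggagaagcaaa
GAS5, chr1:173869026-173869055, minus strand: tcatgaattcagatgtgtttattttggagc

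Of the 22 host genes with a RefSeq entry, 14 had such a run (63.6%), against 33.5% of 35116 RefSeq starts and 81.5% of 65 ribosomal protein genes. It was searched on the gene's strand only, and a longer run can hold several matches. In SNHG5, SNHG16, SNHG17 and ZFAS1 the run stood at or within 5 bases after the start. In SNHG29 and SNHG7 it began 10 bases before the start and ended before it, so that it lies outside the RefSeq transcript. SNHG1, SNHG30 and GAS5 had no match in their windows. The RefSeq start lies 163 bases from that of GENCODE 29 for GAS5, 165 for SNHG29 and 464 for ZFAS1. Of hosts not shown, the distance is 1259 bases for SNHG12 and 154975 for SNHG14, both with a run, and 1927 for SNHG20, without one. Whether a run is found can therefore depend on the annotation used. CACGTG, the E-box, which reads the same on both strands, was found in 2 of the 22 promoters of 300 bases (9.09%), against 7.26% of all promoters. CGGAAG or its reverse complement CTTCCG, the core of ETS factor sites, was found in 5 (22.7%), against 19.5% of all promoters.

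The libraries held 15440226 to 27110612 counts, of which the 26 host genes took 0.136% to 0.197%. B-cell genes were present in both lines (MS4A1, the gene of CD20, at 856 to 2350 CPM, the count scaled to a common library size). T-cell and monocyte genes were at most at 0.954 CPM, whereas EPCAM, an epithelial gene, was at 28.6 to 37.3 CPM in U2932 and at most 0.206 CPM in TMD8. A pair of TMD8 libraries, the second replicates of OF and of isotype, was unlike the remaining 4. Their share of counts in ribosomal protein genes was 7.16% and 6.5%, and that of the remaining 4 lay between 10.0% and 10.8%. They were also low in mitochondrial RNA, at 3.73% and 3.99% of counts against 5.70% to 6.23%. The part of RNA or library quality in this was not tested. Results of the host transcripts in TMD8 are therefore given with and without these libraries, and those of other genes mostly with them only. In U2932, the ribosomal protein share was 4.44% to 4.74% with isotype and 6.03% to 6.56% with R or OF. In bulk RNA, fewer cells of a kind and less RNA per cell cannot be told apart.

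In U2932, the host transcripts moved in both directions with R. Of the 25 that could be tested, 7 rose and 3 fell at an adjusted p under 0.1, where 16.8% of all tested genes were called higher and 17.4% lower. SNHG5, SNHG17, SNHG16, SNHG15, SNHG29, SNHG6 and SNHG12 rose, and SNHG1, SNHG7 and SNHG30 fell. The median log2 fold change of the 25 was 0.15, and that of all genes −0.02. This median was 0.03 without R replicate 2, 0.05 without isotype replicate 1 and 0.05 with library sizes alone. With OF, 6 of the 25 rose and 4 fell, against 18.7% of all genes called higher and 17.8% lower. SNHG17, SNHG5, SNHG16, SNHG26, SNHG29 and SNHG15 rose, SNHG1, SNHG7, SNHG30 and SNHG3 fell, and the median was 0.06, against 0.01 for all genes. It was 0.02 without isotype replicate 1, 0.09 without isotype replicate 2 and −0.02 with library sizes alone. That scaling also moved the balance of all genes, to 1708 higher and 3709 lower with R and 1968 and 3484 with OF, and that of the hosts to 6 and 3 with R and 5 and 5 with OF. Both comparisons used the same isotype libraries, so that they are not independent of each other. A change of at least 1.5-fold was reached by SNHG5 and SNHG17 with R and by SNHG17 with OF. At that size, 1494 of all 14635 genes were called with R and 1625 with OF.

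SNHG5, the host of the box C/D snoRNA U50, rose most among the hosts with R in U2932, while SNHG17 did with OF. SNHG5 stood at 189 and 166 CPM in the U2932 isotype libraries, at 333 and 291 CPM with R, and at 254 and 278 CPM with OF. All 4 antibody libraries were above both isotype libraries. The change with R was 1.76-fold, or 0.81 ± 0.09 on the log2 scale (SE, n = 2 per group; adjusted p = 3.5e-07, edgeR's quasi-likelihood test), and that with OF was 0.58 ± 0.09 (adjusted p = 3.8e-05).

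SNHG17, which carries the SNORA71 family of box H/ACA snoRNAs, stood at 31.0 and 28.5 CPM with isotype, 48.1 and 44.1 CPM with R, and 49.4 and 44.4 CPM with OF. Both antibodies lay above isotype without overlap. Its log2 fold change was 0.63 ± 0.11 with R (SE, n = 2 per group; adjusted p = 6.6e-05, edgeR) and 0.66 ± 0.11 with OF (adjusted p = 4.2e-05).

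SNHG16, a host of the SNORD1 snoRNAs, stood at 55.7 and 69.4 CPM with isotype, 83.6 and 92.0 CPM with R, and 92.8 and 85.7 CPM with OF. No antibody library overlapped the isotype libraries. The log2 fold change was 0.49 ± 0.10 with R (SE, n = 2 per group; adjusted p = 0.00089, edgeR) and 0.51 ± 0.10 with OF (adjusted p = 0.00057).

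SNHG15, host of a box H/ACA snoRNA, stood at 50.8 and 58.3 CPM with isotype, 74.4 and 77.3 CPM with R, and 64.7 and 72.3 CPM with OF. Its groups did not overlap either, and the rise was 0.47 ± 0.10 with R (SE, n = 2 per group; adjusted p = 0.00078, edgeR) and 0.33 ± 0.10 with OF (adjusted p = 0.015). Without OF replicate 2 the change with OF was no longer called (adjusted p = 0.30).

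SNHG29, the most abundant of the 26 over all libraries and a host of SNORD49 and SNORD65, stood at 235 and 220 CPM with isotype, 286 and 328 CPM with R, and 288 and 286 CPM with OF. The antibody libraries again lay above the isotype libraries. The log2 fold change was 0.44 ± 0.09 for R (SE, n = 2 per group; adjusted p = 0.00048, edgeR) and 0.34 ± 0.09 for OF, where the adjusted p was 0.0048.

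The remaining rises were called with 1 antibody each. SNHG6 rose by 0.38 ± 0.10 on the log2 scale with R (adjusted p = 0.0040, edgeR) and differed by 0.18 ± 0.10 with OF (adjusted p = 0.17). SNHG12 was called with R (0.25 ± 0.11, adjusted p = 0.091) and SNHG26 with OF (0.39 ± 0.15, adjusted p = 0.057), and both were near the limit. DESeq2 called neither of them, and each was lost when 1 of several libraries was left out, with a highest adjusted p of 0.34 for SNHG12 and 0.35 for SNHG26. That an effect was called with 1 antibody alone does not show that the antibodies differed.

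**Figure D1:**
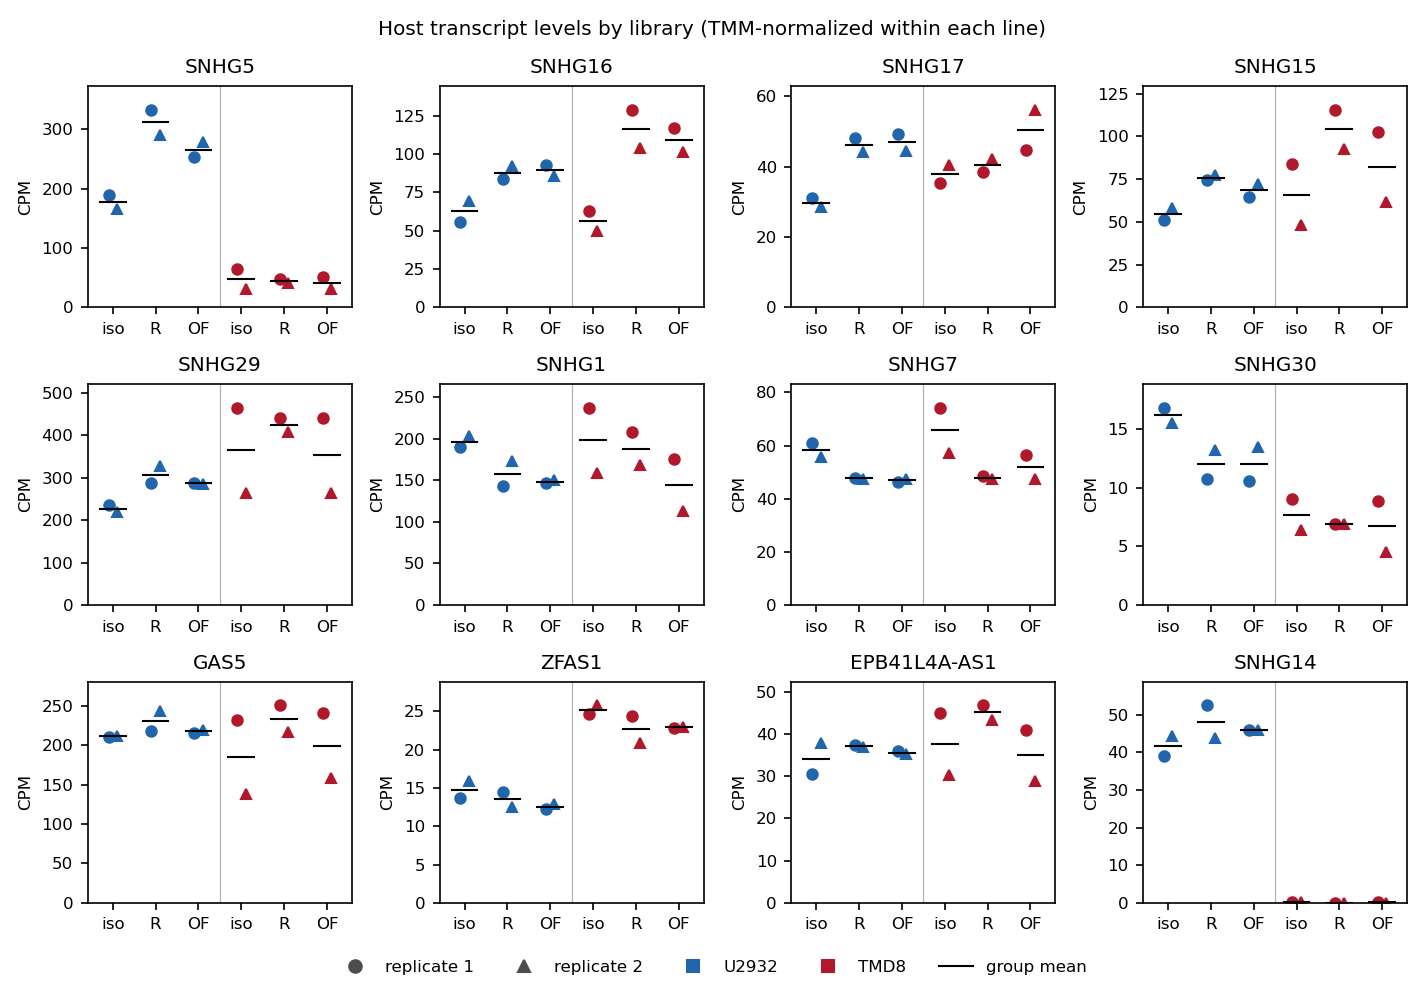
Levels of 12 host transcripts in each library, in CPM after TMM normalization within each cell line, for isotype (iso), R and OF. Circles and triangles are replicates 1 and 2, colors are the cell lines and bars the group means. In U2932 the R and OF libraries of SNHG5 (254 to 333 CPM) lie above isotype (166 and 189 CPM), and in TMD8 replicate 2 lies below replicate 1 with isotype and OF for SNHG29 and GAS5.

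SNHG1, which hosts box C/D snoRNAs of the U22 cluster, fell in U2932. It stood at 190 and 204 CPM with isotype, 143 and 173 CPM with R, and 146 and 150 CPM with OF, with no overlap. The log2 fold change was −0.32 ± 0.09 with R (SE, n = 2 per group; adjusted p = 0.013, edgeR) and −0.41 ± 0.10 with OF (adjusted p = 0.0019). Without R replicate 1, the lower of the R libraries, the change with R was −0.19 and was not called (adjusted p = 0.26).

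SNHG7 stood at 60.9 and 55.8 CPM with isotype, 47.8 and 47.5 CPM with R, and 46.4 and 47.6 CPM with OF. The antibody libraries differed little from each other and lay below isotype. It fell by 0.29 on the log2 scale with R (SE 0.10, n = 2 per group; adjusted p = 0.027, edgeR) and by 0.31 with OF (SE 0.10; adjusted p = 0.017). Leaving out either library of an antibody ended the call with that antibody, with a highest adjusted p of 0.13 for R and 0.20 for OF.

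SNHG30 was scarcer, at 16.8 and 15.5 CPM with isotype, 10.7 and 13.2 CPM with R, and 10.6 and 13.4 CPM with OF. With both antibodies replicate 1 was the lower one, and no library reached the isotype level. Its log2 fold change was −0.43 ± 0.14 with each antibody (SE, n = 2 per group; edgeR's adjusted p = 0.025 for both). DESeq2 gave an adjusted p of 0.11 with R. Without replicate 1 of the antibody the calls were lost (adjusted p = 0.26 with R and 0.36 with OF). Whether the counting used the strand is not given in the sources used here, so reads of genes that overlap cannot be told apart. SNHG3, host of the U17 snoRNAs, lies within RCC1 on the same strand and was called with OF (−0.24 ± 0.11, adjusted p = 0.098). Its change was −0.07 without OF replicate 2 (adjusted p = 0.80), and RCC1 differed by 0.06 (adjusted p = 0.65).

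GAS5, the best-known host, which accumulates in cells whose growth is arrested, was not called with either antibody. In U2932 it stood at 211 and 212 CPM with isotype, 219 and 243 CPM with R, and 216 and 219 CPM with OF. Although all 4 antibody libraries were above isotype, the log2 differences were 0.13 ± 0.09 with R (SE, n = 2 per group; adjusted p = 0.30, edgeR) and 0.04 ± 0.09 with OF (adjusted p = 0.76). After a correction for the GC content of the genes, the difference with R was 0.18 and was called (adjusted p = 0.034).

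ZFAS1, host of the SNORD12 snoRNAs, stood at 13.6 and 15.9 CPM with isotype, 14.5 and 12.5 CPM with R, and 12.2 and 12.9 CPM with OF. R overlapped isotype and OF lay just below it. The log2 differences were −0.13 ± 0.13 with R (SE, n = 2 per group; adjusted p = 0.52, edgeR) and −0.23 ± 0.14 with OF (adjusted p = 0.21). With the GC correction the difference with OF was −0.36 and was called (adjusted p = 0.034). It was also called with library sizes alone (−0.31, adjusted p = 0.095) and with a length correction chosen after the values were seen (−0.32, adjusted p = 0.083).

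EPB41L4A-AS1, host of SNORA13, stood at 30.5 and 37.8 CPM with isotype, and the 4 antibody libraries lay between these values, at 35.3 to 37.4 CPM. Its log2 differences were 0.12 ± 0.11 with R (SE, n = 2 per group; adjusted p = 0.45, edgeR) and 0.06 ± 0.11 with OF (adjusted p = 0.74). SNHG4, the fifth most abundant host over all libraries, stood at 71.9 and 84.4 CPM with isotype, 75.4 and 87.7 CPM with R, and 82.8 and 73.8 CPM with OF. These groups overlapped, and the differences were 0.06 ± 0.10 and 0.00 ± 0.10 (R and OF, adjusted p = 0.71 and 0.99).

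R and OF were compared to look for differences in RNA that could bear on how each antibody combines with chemotherapy. Among the host transcripts, 0 of 25 in U2932 differed at an adjusted p under 0.3, where 0.00683% of all genes did (1 of 14635), and 0 of 23 in TMD8 differed at an adjusted p under 0.1, where 0% of all genes did. At an unadjusted p under 0.05, edgeR gave 3 in U2932 (SNHG5, SNHG6 and SNHG12, each higher with R) and 0 in TMD8, against 747 of all 14635 genes and 582 of all 14227, and DESeq2 called 0 in each line. The difference between R and OF in U2932 was 0.23 ± 0.09 for SNHG5, 0.20 ± 0.10 for SNHG6 and 0.28 ± 0.11 for SNHG12 on the log2 scale (adjusted p = 0.91 for each). The TMD8 shares hold for the fit with all of its libraries. There the median log2 difference of the hosts between R and OF was 0.20. It was −0.08 without the second replicates of OF and isotype, which leaves OF with a lone library.

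**Figure D2:**
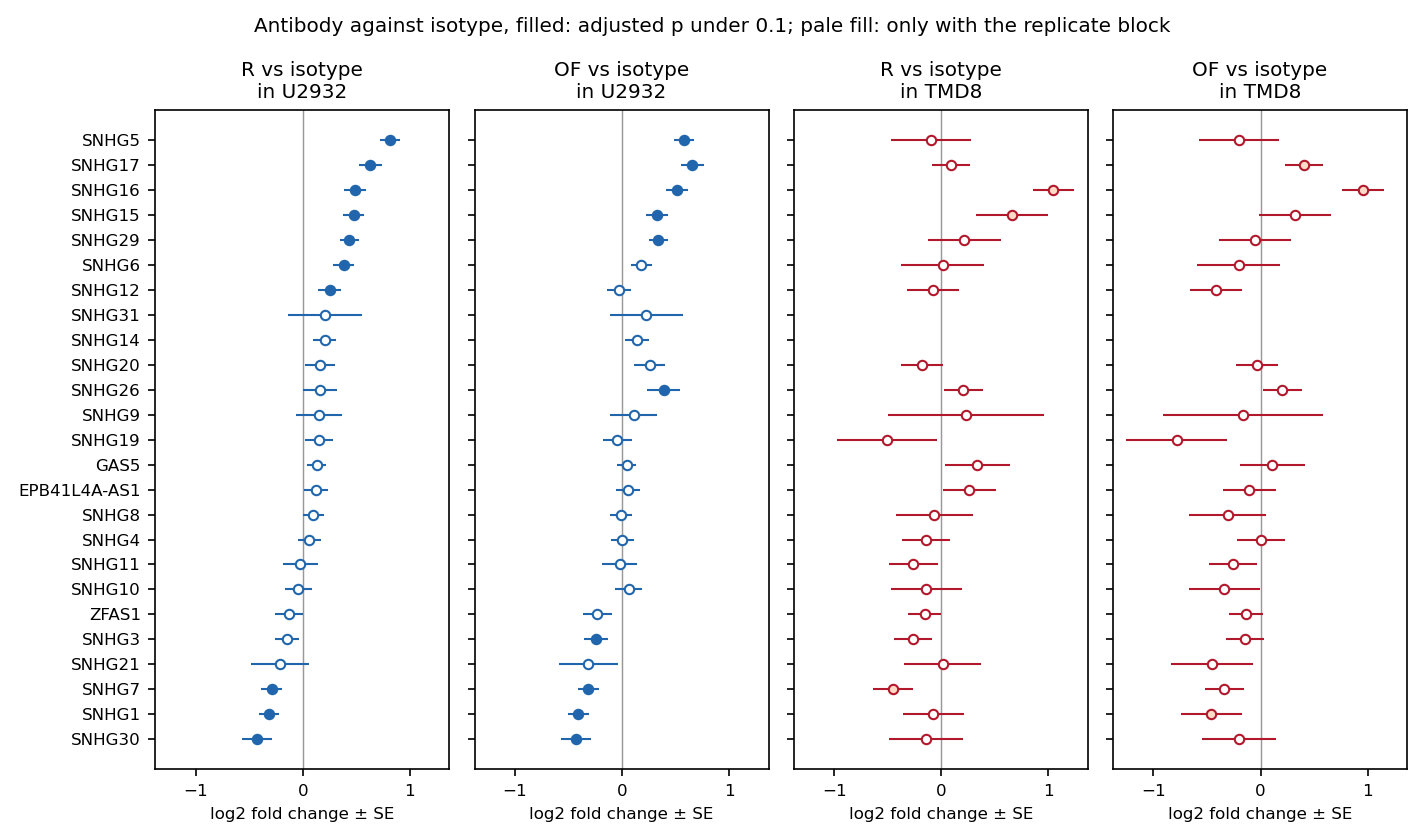
Log2 fold changes of the host transcripts with R or OF against isotype in each cell line, with bars for the SE, in the order of the change with R in U2932. Filled points passed an adjusted p under 0.1 and pale filled points passed it only with the replicate number as a block. The bars in TMD8 are longer than in U2932, and SNHG16 is the highest point of both TMD8 panels, at 1.05 with R and 0.95 with OF.

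In TMD8, 0 of 23 host transcripts were called with R or with OF by edgeR, while 0.401% of all genes were called higher and 0.246% lower with R, and 0.471% higher and 0.344% lower with OF. At an unadjusted p under 0.05 there were 2 with R and 1 with OF, against 2265 and 2009 of all 14227 genes, and DESeq2 called 1 with each, against 553 and 425 of all genes. The replicate number marks a shared culture, and with it as a block 3 host transcripts were called with each antibody, where 17.7% of all genes were called with R and 14.3% with OF. SNHG16 and SNHG15 rose and SNHG7 fell with R in that fit, and SNHG16 and SNHG17 rose and SNHG1 fell with OF.

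SNHG16 had the lowest adjusted p of the host transcripts in TMD8 with both antibodies. It stood at 62.6 and 50.01 CPM with isotype, 129 and 104 CPM with R, and 117 and 101 CPM with OF. Every antibody library was above both isotype libraries. The log2 fold change was 1.05 ± 0.20 with R (SE, n = 2 per group; adjusted p = 0.10, edgeR) and 0.95 ± 0.20 with OF (adjusted p = 0.13), just outside the limit. With the block the adjusted p was 0.0034 with R and 0.0062 with OF, and DESeq2 gave 0.0025 and 0.011. With the block SNHG15 rose by 0.71 with R (adjusted p = 0.024) and SNHG17 by 0.41 with OF (adjusted p = 0.086), whereas SNHG7 fell by 0.44 with R (adjusted p = 0.073) and SNHG1 by 0.46 with OF (adjusted p = 0.079).

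GAS5 in TMD8 stood at 232 and 138 CPM with isotype, 251 and 217 CPM with R, and 241 and 158 CPM with OF. In the isotype and OF groups the replicates lay further apart than the group means did. Its log2 differences were 0.34 ± 0.30 with R (SE, n = 2 per group; adjusted p = 0.63, edgeR) and 0.11 ± 0.30 with OF (adjusted p = 0.91). SNHG29 behaved alike, at 465 and 264 CPM with isotype, 441 and 407 CPM with R, and 441 and 264 CPM with OF. ZFAS1 varied less between replicates, at 24.7 and 25.8 CPM with isotype, 24.4 and 20.9 CPM with R, and 22.9 and 23.0 CPM with OF. EPB41L4A-AS1 ranged from 28.97 to 46.8 CPM, with the 2 lowest values in the libraries that stood apart.

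The TMD8 replicates also differed from each other, most in size with isotype and OF. R replicate 2 shares its replicate number with the libraries that stood apart, but its ribosomal protein share was 10.0%. The difference was therefore not shared by all libraries of that number. Replicate 2 was below replicate 1 for 20 of 23 with isotype, 21 of 23 with OF and 20 of 23 with R, and the median log2 difference was −0.50, −0.50 and −0.12. The 7 host transcripts of at most 1100 bases differed by a median of −1.05 with isotype and −0.78 with OF, against −0.50 and −0.38 for the 16 longer ones. SNHG9, with a transcript of 471 bases, stood at 4.39 and 1.14 CPM with isotype and at 3.76 and 1.04 CPM with OF. SNHG19, of 342 bases, stood at 31.5 and 14.1 CPM with isotype and at 18.3 and 8.08 CPM with OF. Among the short ones ZFAS1 and SNHG21, and among the longer ones SNHG17 and SNHG26, had isotype differences of 0.06, −0.01, 0.19 and 0.22. Over the 23 host transcripts, Spearman's rho between length and this difference was 0.43 with isotype and 0.50 with OF, and over all 14207 genes with a length it was 0.33 and 0.31. The points share their libraries, and rho is given as a description. Ribosomal protein genes, which are short as well, differed by a median of −0.98 with isotype and −0.81 with OF. The part of transcript length or ribosomal protein RNA in these differences was not tested.

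**Figure D3:**
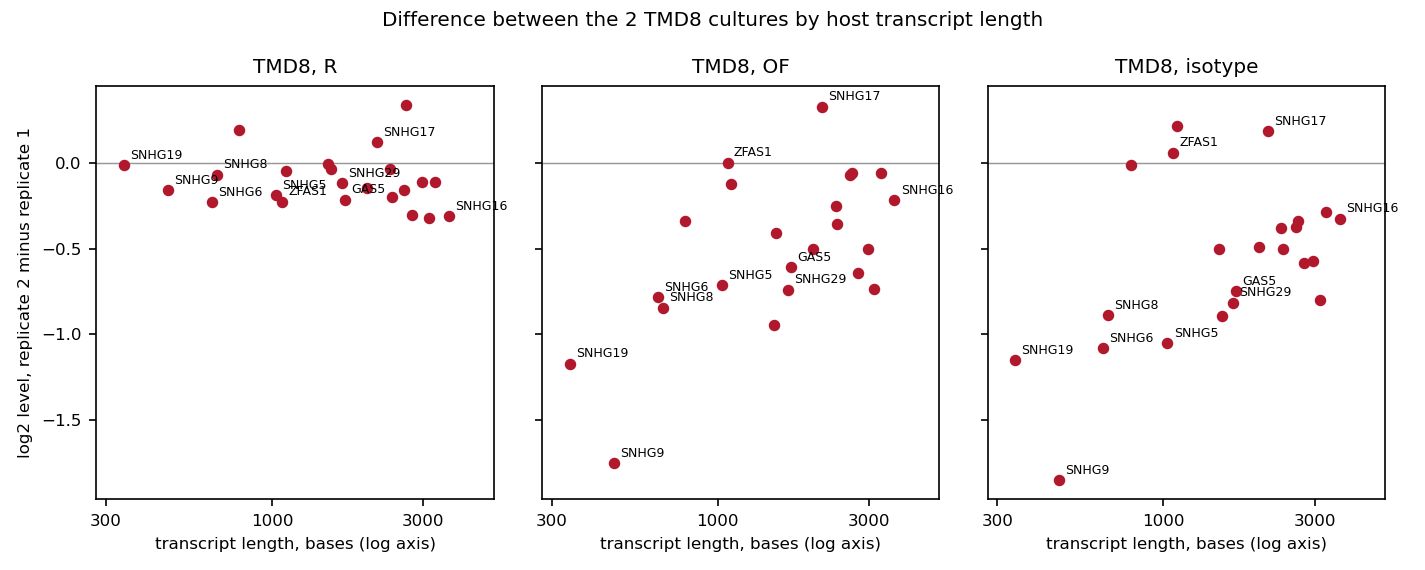
Log2 level of each host transcript in replicate 2 minus replicate 1 of TMD8 against transcript length in bases (log axis), for R, OF and isotype. Points scatter within about the same band at every length with R, while with OF and isotype the shortest transcripts, SNHG19 and SNHG9, lie more than 1 log2 unit below 0.

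Without these 2 libraries, a fit of the remaining 10 keeps isotype replicate 1, in which most hosts were higher. The direction of the hosts' median depended on that choice. With R it was −0.35 without isotype replicate 2 and 0.19 without isotype replicate 1, and with OF −0.43 and 0.18. The OF median also turned, to 0.09 without OF replicate 2 and −0.47 without OF replicate 1. In the fit of 10, R against isotype gave 2 host transcripts higher and 9 lower of 26, where 13.9% of all genes were called higher and 11.6% lower, and OF against isotype gave 1 higher and 4 lower, against 10.5% and 8.68%. SNHG16 was called with both antibodies (0.90 with each, adjusted p = 1.2e-05 for R and 9.7e-05 for OF), and SNHG15 with R. SNHG19 (−0.97 with R and −0.78 with OF), SNHG7 (−0.62 and −0.39), SNHG10 (−0.52 and −0.54) and SNHG1 (−0.33 and −0.43) were called lower with both. SNHG3, SNHG4, SNHG5, SNHG6 and SNHG8 were called lower with R alone. This fit was chosen after the values were seen, and it leaves isotype and OF with a lone TMD8 library each, assumed to vary like the other groups.

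The difference in response between the lines was also tested, as the mean change with R and OF in TMD8 minus that in U2932. It was called for 0 of 25 host transcripts by edgeR, where 1.02% of all genes were called, and for 0 of 26 by DESeq2, which called 572 genes. With edgeR, 3 host transcripts had an unadjusted p under 0.05, as did 2047 of all 16187 genes. Their values were those of SNHG5 (−0.84 ± 0.35, adjusted p = 0.36), SNHG16 (0.50 ± 0.20, adjusted p = 0.34) and SNHG17 (−0.40 ± 0.18, adjusted p = 0.39). With the replicate block, SNHG5 (−0.79, adjusted p = 0.042) and SNHG16 (0.49, adjusted p = 0.075) were called. SNHG5 in TMD8 stood at 63.6 and 30.7 CPM with isotype, 46.9 and 41.3 CPM with R, and 50.9 and 31.1 CPM with OF. These TMD8 groups overlapped, in contrast to those of U2932. Without isotype replicate 2 of TMD8 the difference for SNHG5 was −1.28 and was called (adjusted p = 0.037), and without isotype replicate 1 it was −0.25 (adjusted p = 0.64). In the fit of 10 libraries 7 were called, each with a negative difference, where 14% of all genes were called.

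With isotype, the lines differed in the level of 15 of 25 host transcripts, of which 6 were higher in U2932 and 9 in TMD8, where 33.2% of all genes were higher in U2932 and 33.7% lower. SNHG14 and SNHG31 reached 10 counts in the U2932 libraries alone, so that they were included through the line in which they are high, and their values are a description. A separate fit of only the genes with at least 10 counts in every library called 3 of its 22 hosts higher in U2932 and 7 in TMD8. Of all genes in that fit, 3587 were called higher in U2932 and 3561 lower. The cell line cannot be told apart from anything else that differs between the lines. These levels are CPM after 1 normalization of all 12 libraries. SNHG14, the long host of the SNORD115 and SNORD116 clusters in the imprinted Prader-Willi region, had 833 and 970 counts in U2932 and 2 and 3 in TMD8. The ratio of these levels was 365, with an exact 95% counting interval of 156 to 1124. Over all groups it had 5018 counts in U2932 and 10 in TMD8, whereas UBE3A, which SNHG14 overlaps from the opposite strand, was at 134 to 211 CPM in U2932 and 142 to 191 CPM in TMD8. SNHG31 had 62 counts in the U2932 isotype libraries and 12 in those of TMD8, a ratio of 5.22 (2.79 to 10.7). Both intervals cover counting error only.

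Among the abundant hosts, SNHG5 was at 180 and 159 CPM in U2932 and at 66.3 and 32.6 CPM in TMD8. It was higher in U2932 by 1.78 ± 0.29 on the log2 scale (SE, n = 2 per group; adjusted p = 0.00029, edgeR). SNHG4 went the other way, at 68.5 and 80.7 CPM in U2932 and at 191 and 137 CPM in TMD8 (−1.14 ± 0.18, adjusted p = 0.00025). ZFAS1 did as well, at 13.0 and 15.2 CPM against 25.7 and 27.4 CPM (−0.92 ± 0.14, adjusted p = 0.00017). SNHG30, SNHG21 and SNHG10 were also higher in U2932, by 0.94, 1.5 and 0.68. SNHG8, SNHG29, SNHG6, SNHG3, SNHG17, SNHG26 and SNHG7 were higher in TMD8, by log2 differences of −0.89, −0.82, −0.67, −0.55, −0.49, −0.48 and −0.31. With the GC correction the difference of SNHG7 turned to 0.051 and was not called (adjusted p = 0.87). The calls of SNHG6, SNHG7, SNHG8 and SNHG29 were lost without TMD8 isotype replicate 1, those of SNHG10 and SNHG26 without isotype replicate 2, and those of SNHG6, SNHG7, SNHG10 and SNHG26 without single other libraries too. In the fit of 10 libraries, 20 were called, where 70.1% of all genes were. GAS5, at 201 and 202 CPM against 242 and 147 CPM, was not called (0.06 ± 0.23, adjusted p = 0.85), and in the fit of 10 libraries it was lower in U2932 (−0.26, adjusted p = 0.040).

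Per kilobase of transcript, the order of levels differed between the lines. In U2932 with isotype, SNHG5 came first at 164 CPM per kb, followed by SNHG29 at 130 and GAS5 at 119. In TMD8 SNHG29 led at 230 CPM per kb, SNHG6 and SNHG8 followed at 156 and 153, and SNHG5 ranked eighth at 47.9. SNHG6, SNHG8 and GAS5 are among those that differed strongly between the TMD8 isotype libraries, so that their order there lies within the spread.

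**Figure D4:**
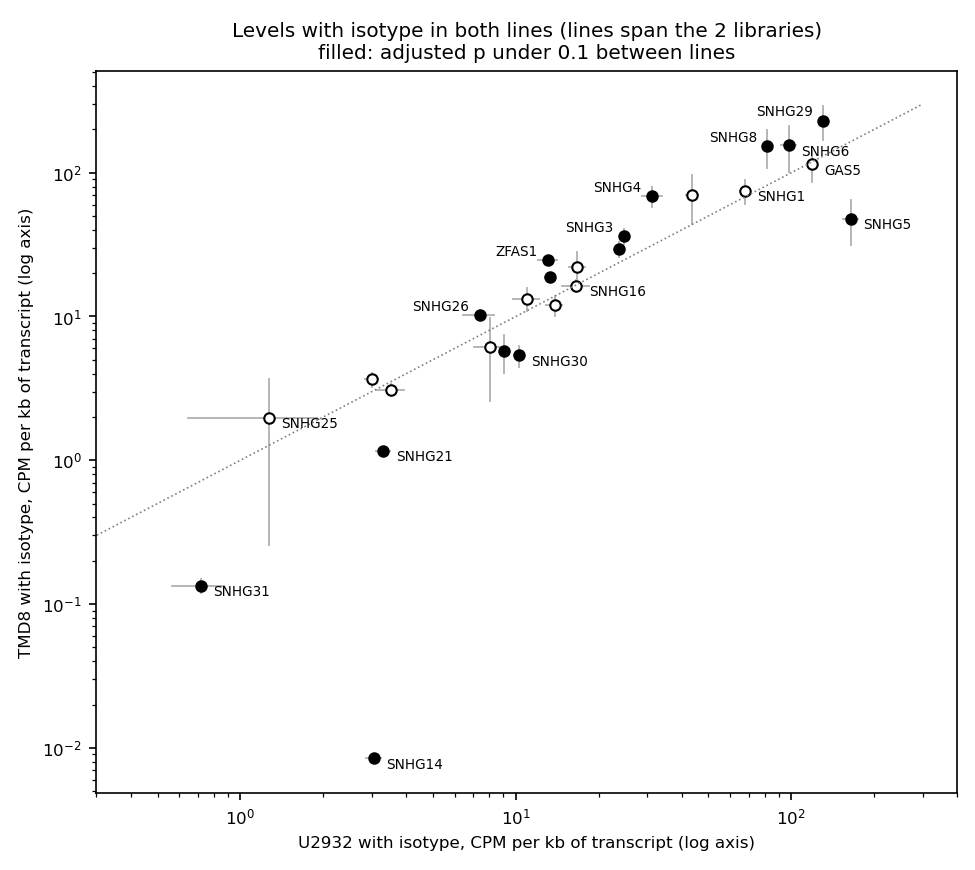
Mean level with isotype in U2932 (x axis) and TMD8 (y axis), in CPM per kb of transcript on log axes, with thin lines spanning the 2 libraries and a dotted line of equal level. Filled points differed between the lines at an adjusted p under 0.1, and SNHG25 was not tested. SNHG14 lies far below the dotted line, SNHG5 below it and SNHG4 and ZFAS1 above it.

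Other genes of the same pathway were read from lists, whose counts stand against the shares of all genes in U2932 given above, 16.8% higher and 17.4% lower with R and 18.7% and 17.8% with OF. Of 21 tested factors of nonsense-mediated decay and the exon junction, 1 rose and 7 fell in U2932 with R, and 3 rose and 8 fell with OF. SMG9, a regulator of the SMG1 kinase, fell by 0.52 and 0.38 (adjusted p = 0.00042 and 0.0069). CASC3, an exon junction protein, fell by 0.40 with R and 0.34 with OF, PNRC2, a decapping adaptor, by 0.35 and 0.46, and UPF2, which activates UPF1, rose by 0.38 and 0.35. The list's median log2 fold change was −0.14 with R and −0.16 with OF. Of 22 tested genes whose transcripts are known to be removed by decay, 6 rose and 7 fell with R, and 5 rose and 8 fell with OF. SLC7A11, the cystine transporter, rose by 1.26 and 1.18, and CDKN1A, a cell cycle inhibitor, by 0.79 and 0.73, as did TMEM183A, by 0.60 and 0.53, whereas SRSF7, a splicing factor, fell by 0.54 and 0.64.

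Proteins that assemble on the snoRNAs made up further lists. Of 12 box C/D proteins and assembly factors, 2 rose and 3 fell with R and 2 rose and 5 fell with OF in U2932. NUFIP1 (−0.81 with R and −0.83 with OF) and ZNHIT6 (−0.53 and −0.55), which help to assemble the particle, and NOP56 (−0.32 and −0.43), a core protein, fell, while SNU13 (0.34 and 0.23), which binds the snoRNA, rose. Of 6 H/ACA proteins, 2 rose and 3 fell with R and 1 rose and 3 fell with OF. NHP2 (0.34 with R, and 0.17 with OF, which was not called) and NOP10 (0.33 and 0.21), small core proteins, rose, while DKC1 (−0.26 and −0.33), the pseudouridine synthase, and GAR1 (−0.24 and −0.29), another core protein, fell. Of 30 coding genes that host snoRNAs, 7 rose and 7 fell with R and 5 rose and 9 fell with OF. HSPA8, a heat shock protein, rose by 1.63 and 1.49, RACK1, a component of the small ribosomal subunit, by 0.52 and 0.41, and TPT1 by 0.50 and 0.40, while DDX21, a nucleolar helicase, fell by 0.59 and 0.68. In TMD8 edgeR called 0 genes of these lists with either antibody, and with the replicate block 1 to 6 genes of each list with R, other than 0 of the H/ACA proteins, and 1 to 8 with OF.

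Ribosomal protein genes, taken by name, rose in U2932 in 69 of 77 cases with R and in 68 of 77 with OF, with median log2 fold changes of 0.54 and 0.43, and 1 fell with each. In TMD8, 0 of 78 were called by edgeR with either antibody, and the medians were 0.28 and 0.07. In the same U2932 libraries SNHG5, SNHG16, SNHG17, SNHG15 and SNHG29 rose, while SNHG1, SNHG7 and SNHG30 fell and GAS5 and ZFAS1 were not called. The part of the ribosomal protein genes in these changes was not tested. RPS2, whose start neighbors that of SNHG9, rose by 0.36 and 0.34, and SNHG9 differed by 0.15 ± 0.22 and 0.11 ± 0.22 (adjusted p = 0.65 and 0.76). GLRX5, which overlaps SNHG10 on the other strand, rose by 0.51 and 0.52, while SNHG10 differed by −0.04 and 0.06 (adjusted p = 0.84 and 0.75). ZNFX1, next to ZFAS1, fell by 0.36 and 0.28, and ZBTB37, next to GAS5, by 0.32 and 0.42. UBE3A fell by 0.48 and 0.53, while SNHG14 differed by 0.21 and 0.14 (adjusted p = 0.17 and 0.36). SEC14L1, which overlaps SNHG20 by 11154 bases on the same strand, fell by 0.50 and 0.32, and SNHG20 differed by 0.16 and 0.26 (adjusted p = 0.45 and 0.18).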

How the data were processed

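Total RNA of 12 libraries was sequenced. Per the labels, the submitters' processing notes name Trim Galore 0.6.0, STAR 2.7.0e, DESeq2 1.26.0 and GRCh38; the annotation release and the strand setting of the counting are not given in the sources used here. The authors deposited raw counts of reads per gene, without normalization. Symbols came from a table of gene names (58472 genes) and GENCODE 29 (404), which also gave positions, GC content and the length of the longest transcript. Counts were analyzed in R 4.3.3 with edgeR 4.0.16: TMM, filterByExpr and quasi-likelihood tests in the 6 libraries of a line (14635 genes in U2932, 14227 in TMD8) or in all 12 (16187), with Benjamini-Hochberg adjustment over all genes. Genes were called at an adjusted p under 0.10, or 0.30 for R against OF in U2932. SEs were derived from the fold change and its F statistic. CPM are TMM-normalized, and log2 levels had a prior count of 2. Alternatives were DESeq2 1.42.0, upper-quartile factors, library sizes, other filters and limits, GC and length corrections (lowess, span 0.3), a replicate block, other sets of libraries and leaving out each library.

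The labels state that the replicates of a line were separately kept cultures, so a replicate number marks a shared culture. Deviations of same-numbered libraries correlated at 0.22 to 0.69 in TMD8 and −0.05 to 0.10 in U2932. Replicates differed beyond sampling noise (chi-square divided by its degrees of freedom, 2.37 to 109), so each counted as its own sample. The steps were tested on simulated data. The genes and lists were chosen with earlier results of these data known. Values per library were given for host transcripts called in at least 2 comparisons with isotype, for GAS5, EPB41L4A-AS1 and ZFAS1 and for the 5 with the highest mean CPM; of other lists, up to 4 genes with the smallest adjusted p with R were named, and neighbors on either strand, of which 1 is not reported here. Figures were drawn with matplotlib 3.10.9.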

Additional observations from a re-analysis of the deposited data

How the results depend on the processing

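In U2932, edgeR called 5005 of all genes with R and 5334 with OF. A fit shared by all 12 libraries called 1207 and 1407 of all genes, and 1494 and 1625 were called at a 1.5-fold change or more. Among the host transcripts, 10 were called with R and 10 with OF. The count was 1 with each antibody when all 12 libraries shared a fit, 2 with R and 1 with OF when a 1.5-fold change was required, and 6 to 12 with R and 6 to 11 with OF when a library was left out. The lowest values came without R replicate 1 and without OF replicate 2. In TMD8, where 0 hosts and 92 genes were called, R gave 1 with DESeq2 (553 genes), 1 with at least 10 counts in every library (171), 2 with no filter (1093), 1 with the GC correction (458), 3 with the replicate block (2521), 2 with both (2383), 2 with all 12 libraries (1999) and 0 to 1 when a library was left out. OF in TMD8 (116 genes) gave 1 with DESeq2 (425), 2 with no filter (908), 1 with the GC correction (434), 3 with the replicate block (2037), 6 with both (2257) and 1 with all 12 libraries (1607). The difference in response between the lines (0 hosts and 165 genes) gave 1 with no filter (450), 2 with the replicate block (1108) and 2 with the block and GC correction (981). Of the settings chosen after seeing the data, the length correction gave 1 with R (436 genes) and 1 with OF (350) in TMD8. With the block it gave 4 with R (3876), 6 with OF (3183), 1 for R against OF (914) and 2 for the difference between the lines (1651). Without the 2 TMD8 libraries low in ribosomal protein RNA the counts were 11, 5 and 7 for R, OF and the difference between the lines. SNHG7 reversed between the lines with the GC correction (0.051, adjusted p = 0.87). The causes were not tested. The replicate block changed no call of a host transcript in U2932. Library sizes alone shifted the median of all genes by −0.14 with R in TMD8 and by −0.10 or less in size elsewhere, and turned the sign of 0 called host transcripts. Limits: with 2 libraries per group the spread between cultures is known poorly, and the median SE of a log2 fold change was 0.124 in U2932 and 0.251 in TMD8, so that changes of a size called in U2932 were often not detectable in TMD8. SNHG21 and SNHG31 had few counts, and SNHG25 was not tested.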

Other observations

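The snoRNAs carried by these hosts were mostly at or near 0 in the table. Such counts do not show that a snoRNA was absent, since the capture of RNAs this short was not tested. Those with the highest counts were SNORA71C in SNHG17 (7 to 106 counts per library), SNORD104 in SNHG25 (12 to 71), SNORA73B in SNHG3 (23 to 83), SNORA71B in SNHG17 (8 to 75) and SNORD12B in ZFAS1 (23 to 55). SNORA71C had 106 and 88 counts in TMD8 OF replicate 2 and isotype replicate 2, the libraries that stood apart, against 22 to 53 in the other TMD8 libraries. These counts are not scaled to library size. Isotype replicate 2 held 27110612 counts in total, against 15440226 to 18377047 in the other TMD8 libraries. Its 88 counts therefore do not show a higher level. SNORD104 had 12 counts in that OF library and 35 to 71 in the other TMD8 libraries. These counts were seen before they were chosen for mention, and reads of a snoRNA and of its host cannot be told apart where their annotations overlap.

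The run of pyrimidines at the start was set beside the calls in U2932 after both were seen. It was found in 5 of the 5 hosts that rose with R and had a RefSeq entry, in 1 of the 3 that fell and in 8 of the 14 not called, and with OF in 5 of 5, 1 of 4 and 8 of 13. The numbers are small and were not tested. Among those that rose with R, the RefSeq starts of SNHG29 and SNHG12 lie 165 and 1259 bases from those of GENCODE 29. The runs of SNHG29, which rose, and SNHG7, which fell, ended before the RefSeq start.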
